A study of Mus musculus with 7 samples.

Results

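Lysosomal enzymes and storage disease genes were taken as the 8 genes Galc, Psap, Naglu, Arsb, Gaa, Ctsl, Grn and Ctns, and all 8 were measured among the 5017 genes of the table. Their members were all probe sets annotated with exactly 1 gene symbol, that symbol being 1 of the 8, which gave 102 probe sets. Each probe set covers a short stretch of a transcript, and the genes had between 6 (Naglu) and 20 (Gaa) probe sets each. No member probe set shared its annotation with another gene.

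The arrays measured messenger RNA of retinal pigment epithelium (RPE), the pigmented cell sheet next to the photoreceptors, taken by dissection from mice at postnatal day 5. There were 3 Dicer1-deficient arrays, whose genotype was Dicer1loxP/loxP;Dct-Cre, and 4 control arrays, which the labels call control RPE with no genotype. All pups came from matings between Dicer1 flox/+ mice with the Dct cre transgene and mice with both alleles floxed. Dicer1 makes mature microRNAs, and the dopachrome tautomerase (Dct) promoter is active in pigment cells, melanocytes included. The labels do not say whether arrays came from separate animals or pooled eyes, so the p-values reflect variation among these arrays only, and some of it may be technical.

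Lysosomes break down material brought in by endocytosis, phagocytosis and autophagy. Their hydrolases work at acid pH, several need small helper proteins to reach lipid substrates, and transporters in the membrane return the products to the cytosol. Loss of 1 such protein leaves its substrate undigested, which is the basis of the lysosomal storage diseases. The RPE has a heavy lysosomal load because it engulfs the shed outer segment tips of photoreceptors, and undigested residue builds up in it as lipofuscin.

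Values were log2 signals, and a log2 fold change is Dicer1-deficient minus control. Over all probe sets and arrays the median was 6.22 and the lower quartile 4.63, which serve below as marks of dim signal because no detection calls were used. Control 4 stood apart, with a median of 6.05 against 6.22 to 6.26 in the other 6 arrays, and it correlated with them at 0.942 to 0.951 across probe sets, where those 6 correlated among themselves at 0.971 to 0.988. Results that rest on it are given with and without it. Of 7 measured RPE markers the mean log2 signal was 9.47 to 9.65 in Dicer1-deficient and 9.88 to 10.15 in control arrays, and Rpe65, Best1, Rlbp1 and Ttr were not analysed here. Dicer1 itself averaged 8.23 in Dicer1-deficient and 8.28 in control arrays over its 28 probe sets. The labels do not give the deleted part, so this level checks nothing about the genotype. In dissected tissue fewer cells of a type and less RNA per cell cannot be told apart.

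Galc was the member that differed clearly. Ctns was higher too in the mean of its probe sets, while Psap, Ctsl, Naglu, Arsb, Gaa and Grn did not pass the test. For each gene the test was run on its brightest probe set and on the mean of its probe sets, with limma and Benjamini-Hochberg adjustment over all 5017 genes. At the brightest probe set 1 of the 8 rose and none fell, against 1.42% and 0.917% of all genes (2 of the 8 had an unadjusted p under 0.05, Galc and Ctns). In the mean of probe sets 2 of the 8 rose and none fell, against 3.03% and 2.83% of all genes (4 had an unadjusted p under 0.05: Galc, Ctns, Psap and Grn). The median log2 fold change of the 8 was 0.15 in the mean of probe sets and 0.01 at the brightest one, beside -0.01 over all genes by either summary. Arrays of the groups did not overlap for 4 of the 8 in the mean of probe sets, where that held for 18.9% of all genes, and for 3 of the 8 at the brightest probe set, against 16.3%. The 8 genes were chosen with earlier results of these data known, so these counts and shares only describe them. The plot of the members by array shows both groups for every gene.

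**Figure D1:**
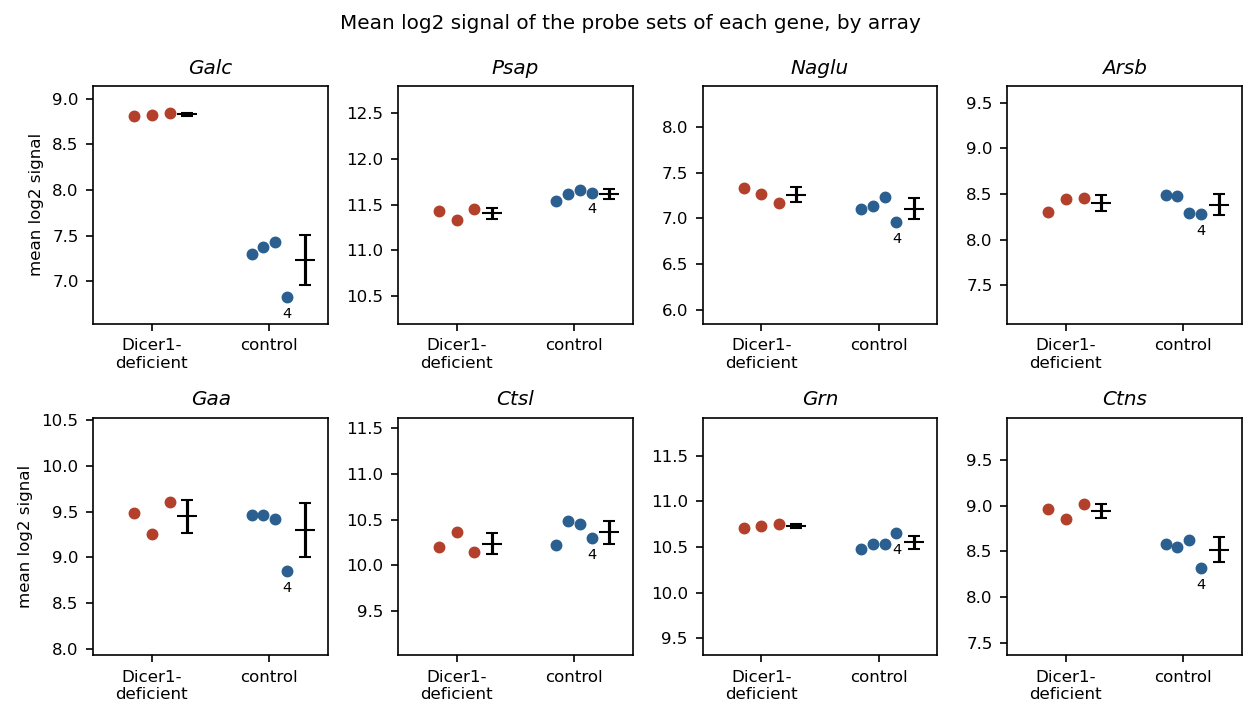
Mean log2 signal over the probe sets of each gene in the 3 Dicer1-deficient arrays (red) and the 4 control arrays (blue, with control 4 numbered), with the group mean and SD as a black bar; every panel spans the same log2 range. Galc and Ctns are higher in all Dicer1-deficient arrays, and control 4 lies low for Galc, Gaa and Ctns.

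The promoters of the members are shown because lysosomal genes are known to share a motif, the CLEAR element, bound by TFEB and its relatives (MITF of pigment cells among them), which is built on an E-box, CACGTG. RefSeq promoters (mouse build GRCm38.p6, 250 bases before to 50 after the start) were found for all 8 members. The letters CACGTG, which read the same on both strands, occurred in the promoters of Naglu, Gaa and Ctsl, 3 of the 8, in those of 5 of 49 other listed lysosomal and autophagy genes (10.2%), and in those of 8.09% of 27025 genes. The windows with the E-box are printed 5′ to 3′ with that motif in capitals, at chr11:101070009-101070038 on the plus strand for Naglu, chr11:119267811-119267840 on the plus strand for Gaa and chr13:64370739-64370768 on the minus strand for Ctsl.
Naglu: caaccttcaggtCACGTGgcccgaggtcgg
Gaa: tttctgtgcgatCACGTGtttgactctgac
Ctsl: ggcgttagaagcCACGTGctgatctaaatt

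The promoter of Galc, the member with the large difference, did not hold these letters, nor did the promoters of Ctns, Psap, Grn and Arsb. That of Galc lies at chr12:98259410-98259709 on the minus strand, and the first listed for Ctns at chr11:73198970-73199269 on the minus strand. Both are printed 5′ to 3′ for the members that rose, with no capitals because the E-box letters are not in these windows.
Galc: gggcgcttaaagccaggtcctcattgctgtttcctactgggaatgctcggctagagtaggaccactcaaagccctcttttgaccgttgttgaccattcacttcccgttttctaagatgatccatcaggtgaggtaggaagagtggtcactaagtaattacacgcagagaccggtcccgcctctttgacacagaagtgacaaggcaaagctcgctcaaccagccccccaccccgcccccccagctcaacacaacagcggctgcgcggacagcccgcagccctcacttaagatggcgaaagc
Ctns: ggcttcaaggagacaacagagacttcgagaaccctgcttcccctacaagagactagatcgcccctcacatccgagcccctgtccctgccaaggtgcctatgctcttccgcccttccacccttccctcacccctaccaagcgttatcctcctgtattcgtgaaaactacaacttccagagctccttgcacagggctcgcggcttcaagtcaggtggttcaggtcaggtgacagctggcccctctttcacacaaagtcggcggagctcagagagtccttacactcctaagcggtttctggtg

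Galc, on chromosome 12, encodes galactosylceramidase, which degrades galactosylceramide and psychosine and is deficient in Krabbe disease. Its mean log2 signal over 18 probe sets was 8.81, 8.83 and 8.85 in the Dicer1-deficient arrays, against 7.30, 7.38, 7.43 and 6.83 in controls 1 to 4. The groups were far apart, the Dicer1-deficient arrays lay close together, and control 4 was the lowest array. Galc thus averaged 8.83 ± 0.02 (SD, n = 3) in Dicer1-deficient and 7.23 ± 0.27 (SD, n = 4) in control arrays, 3.02-fold higher (log2 fold change 1.60, SE 0.14, limma adjusted p = 1.7e-04). This was the 6th highest fold change of the 5017 genes by that summary, and the 32nd at the brightest probe set. Without control 4 it was 1.46 (SE 0.06, limma adjusted p = 4.7e-06), and the test was passed with any 1 array left out.

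The brightest Galc probe set, 10401972, gave a smaller difference with less spread. It read 10.74, 10.95 and 10.74 in the Dicer1-deficient arrays, against 9.77, 9.56, 9.66 and 9.73 in controls 1 to 4, a log2 fold change of 1.13 (SE 0.10, limma adjusted p = 0.0018). Without control 4 it was 1.15 (limma adjusted p = 0.00211), where 3.17% of all genes rose. Here control 4 lay among the other controls.

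Galc was higher at each of its probe sets, whose order here is by number, since their positions along the transcript were not used. All 18 probe sets were higher in every Dicer1-deficient array than in any control array, where groups failed to overlap for 14% of all probe sets. In a limma test over all 53644 probe sets with 1 gene symbol, 13 of the 18 rose, against 0.656% of all probe sets. Without control 4 it was 17 of the 18, against 1.19%. With a Dicer1-deficient array left out 1 to 3 of the 102 passed, beside 144 to 169 of all probe sets, and with control 1, 2 or 3 left out 6 or 7, beside 211 to 256, where 570 of all passed with every array. The probe set left out both times was the last by number, 10401986, at 5.94, 6.20 and 6.27 in the Dicer1-deficient arrays and 4.84, 5.38, 5.54 and 5.39 in controls 1 to 4 (log2 fold change 0.85, limma adjusted p = 0.109). Its signals are dim in both groups, and the plot of Galc along its probe sets shows it at the right-hand end.

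**Figure D2:**
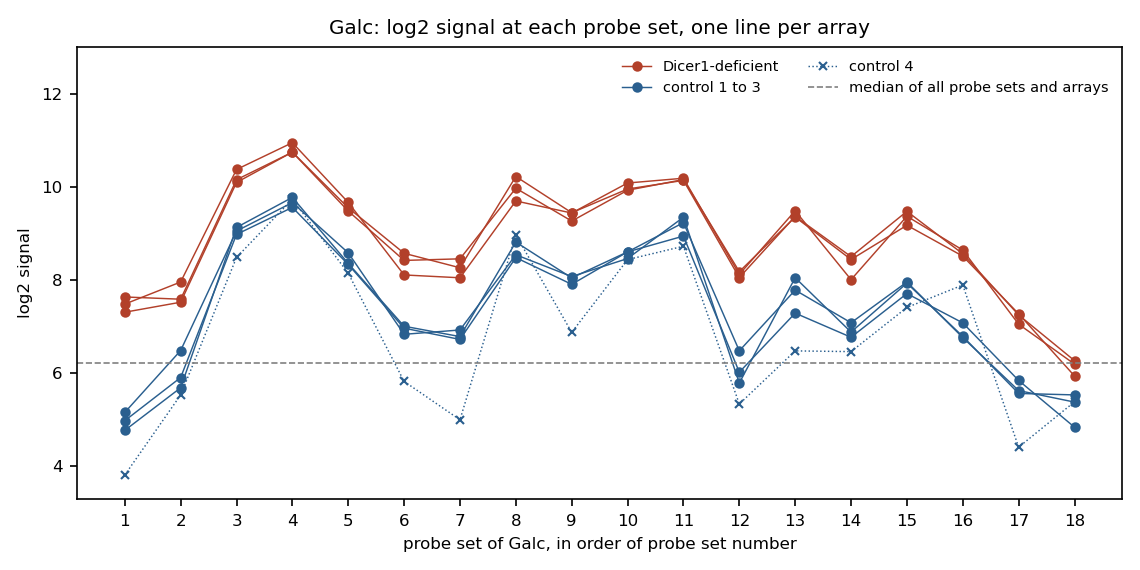
Log2 signal of the 18 Galc probe sets in order of probe set number, with 1 line per array: Dicer1-deficient in red, controls 1 to 3 in solid blue and control 4 dotted. The red lines lie above the blue ones at every probe set, and the dashed line marks the median of all probe sets and arrays, 6.22.

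The size of the Galc difference varied between probe sets, from 0.85 to 2.79 on the log2 scale with a median of 1.55. The largest was at the probe set first by number, 10401969, which read 7.64, 7.48 and 7.31 in Dicer1-deficient arrays against 4.77, 4.98, 5.16 and 3.82 in controls 1 to 4. In 5 of the 18 the control mean was below the median of all values. Signal above background was not shown there, so the size of those folds is uncertain. Over the other 13 the log2 fold change ran from 1.10 to 2.0004. Whether the change was unequal along a gene was tested by subtracting the mean of the gene in each array from each probe set. No Galc probe set passed that test (smallest limma adjusted p = 0.21), which called 0.0361% of 52573 probe sets (0.0761% without control 4, again none of Galc), and no probe set of the other 7 genes passed it either (smallest 0.825, in Gaa).

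Of the 5 measured genes on either side of it on chromosome 12, in the order of the RefSeq table, none passed limma in the mean of probe sets as Galc did, with log2 fold changes from -0.45 (Flrt2) to 0.27 (Spata7). Flrt2, which encodes a cell adhesion protein, passed without control 4 (limma adjusted p = 0.00279). Dicer1 lies on the same chromosome with 73 measured genes between it and Galc, and 2.74% of those passed, against 5.86% of all genes. They were Dglucy (0.34) and Fbln5 (-0.47), which encodes the elastic fibre protein fibulin 5. These neighbours were looked at after the values of Galc had been seen.

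Psap, on chromosome 10, encodes prosaposin, the precursor of the saposins that help hydrolases, Galc among them, to reach sphingolipids. Its mean over 14 probe sets was 11.43, 11.34 and 11.45 in Dicer1-deficient arrays, against 11.54, 11.62, 11.67 and 11.63 in controls 1 to 4. The groups did not overlap, but the gap was small. Its log2 fold change was -0.21 (SE 0.08, limma adjusted p = 0.183). Leaving out control 4 gave -0.20 (adjusted p = 0.0539), so it did not pass either way. All 14 probe sets had negative values, from -0.41 to -0.03, and none passed on its own. Psap and Galc thus had opposite signs, and the difference between them was not tested.

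Neither member of glycosaminoglycan breakdown passed the test. Naglu, on chromosome 11, encodes the alpha-N-acetylglucosaminidase of heparan sulfate breakdown, deficient in Sanfilippo syndrome type B. Its mean over 6 probe sets was 7.34, 7.26 and 7.17 in Dicer1-deficient arrays, against 7.10, 7.13, 7.23 and 6.96 in controls 1 to 4, with overlap between the groups. The log2 fold change was 0.15 (SE 0.09, limma adjusted p = 0.478), and at the brightest probe set it was -0.08, or 0.04 without control 4. Arsb, on chromosome 13, encodes arylsulfatase B of dermatan and chondroitin sulfate breakdown, deficient in Maroteaux-Lamy syndrome. It read 8.30, 8.44 and 8.45 in Dicer1-deficient arrays, against 8.49, 8.47, 8.29 and 8.28 in controls 1 to 4. These overlap throughout, and the log2 fold change over its 11 probe sets was 0.02 (SE 0.09, limma adjusted p = 0.984), or -0.02 without control 4.

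Gaa, on chromosome 11, encodes acid alpha-glucosidase, which digests glycogen in the lysosome and is deficient in Pompe disease. Over 20 probe sets it averaged 9.49, 9.25 and 9.61 in Dicer1-deficient arrays, against 9.47, 9.46, 9.42 and 8.85 in controls 1 to 4. Control 4 was far below the other arrays, and the remaining controls lay inside the Dicer1-deficient range. With all arrays the log2 fold change was 0.15 (SE 0.16, limma adjusted p = 0.793). Leaving out control 4 brought it to 0.00 (SE 0.09, adjusted p = 0.997). Of its probe sets 18 had positive values with control 4 and 12 without it.

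Ctsl, on chromosome 13, encodes the cysteine protease cathepsin L. In the mean of its 9 probe sets it read 10.20, 10.36 and 10.15 in Dicer1-deficient arrays, against 10.22, 10.49, 10.45 and 10.30 in controls 1 to 4, which overlap. At its brightest probe set the values were 11.71, 11.66 and 11.67 in Dicer1-deficient arrays, against 11.82, 11.92, 11.87 and 11.79 in controls 1 to 4, which do not. Neither difference passed, with log2 fold changes of -0.13 (SE 0.10, limma adjusted p = 0.642) and -0.17 (SE 0.09, adjusted p = 0.454). Of the 9 probe sets 7 were lower, 6 of them without overlap, where groups failed to overlap for 14% of all probe sets. Cathepsin genes of the mouse placenta that are close relatives of Ctsl lie on the same chromosome, and 9 of them were measured. Their mean log2 signals were 4.15 to 5.17 in Dicer1-deficient and 4.28 to 5.25 in control arrays, near the lower quartile of all values, and none passed, with Cts6 at -0.14 and Cts7 at -0.11.

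Grn, on chromosome 11, encodes progranulin, a secreted and lysosomal precursor of the granulins, whose loss in people gives frontotemporal dementia or neuronal ceroid lipofuscinosis. Its mean over 12 probe sets was 10.71, 10.72 and 10.75 in Dicer1-deficient arrays, against 10.48, 10.53, 10.53 and 10.66 in controls 1 to 4. All Dicer1-deficient arrays lay above all controls, with control 4 the nearest. The log2 fold change was 0.18 (SE 0.08, limma adjusted p = 0.278). Without control 4 Grn rose, at 0.22 (SE 0.05, limma adjusted p = 0.0256), where 6.74% of all genes rose without that array.

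No Grn probe set passed the test of unequal change along the gene (smallest limma adjusted p = 0.835). As a description, the 5 with a mean log2 signal over 11 had log2 fold changes from -0.01 to 0.08, and the other 7 from 0.13 to 0.46. The largest, probe set 10381599, read 10.48, 10.55 and 10.59 in Dicer1-deficient arrays against 10.003, 10.17, 10.04 and 10.13 in controls 1 to 4. None passed over all probe sets (limma adjusted p = 0.138 for that one), and the split at 11 was chosen after the values were seen. The brightest probe set gave Grn a log2 fold change of -0.01, and 0.04 without control 4.

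Ctns, on chromosome 11, encodes cystinosin, the transporter that carries cystine out of the lysosome and is lost in cystinosis. Its mean over 12 probe sets was 8.96, 8.86 and 9.02 in Dicer1-deficient arrays, against 8.58, 8.55, 8.63 and 8.32 in controls 1 to 4. The groups did not overlap, and control 4 was the lowest. Ctns averaged 8.94 ± 0.08 (SD, n = 3) in Dicer1-deficient and 8.52 ± 0.14 (SD, n = 4) in control arrays, 1.34-fold higher (log2 fold change 0.42, SE 0.10, limma adjusted p = 0.0346). Without control 4 the value was 0.36 (SE 0.06, adjusted p = 0.00684). The call was lost when any other array was left out, with limma adjusted p from 0.0607 (without control 3) to 0.147 (without Dicer1-deficient array 3) and log2 fold changes from 0.39 to 0.47.

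Along Ctns 11 of the 12 probe sets were higher, 9 of them without overlap between the groups, which held for 14% of all probe sets. The 11 with a mean signal at or above the median of all values had log2 fold changes from 0.29 to 0.61, or 0.056 to 0.52 without control 4. The dim one, 10388242, read 4.43 in Dicer1-deficient and 4.50 in control arrays, and its sign turned without control 4 (0.035). None passed on its own over all probe sets, the nearest being 10388250 at 10.44, 10.46 and 10.58 in Dicer1-deficient arrays against 9.95, 9.98, 10.04 and 10.01 in controls 1 to 4 (log2 fold change 0.50, limma adjusted p = 0.101). At the brightest probe set the log2 fold change was 0.49 (SE 0.20, limma adjusted p = 0.329), with values of 11.14, 10.79 and 11.11 in Dicer1-deficient arrays against 10.65, 10.62, 10.83 and 10.004 in controls 1 to 4, which overlap. Without control 4 it was 0.31 (SE 0.12, limma adjusted p = 0.182).

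**Figure D3:**
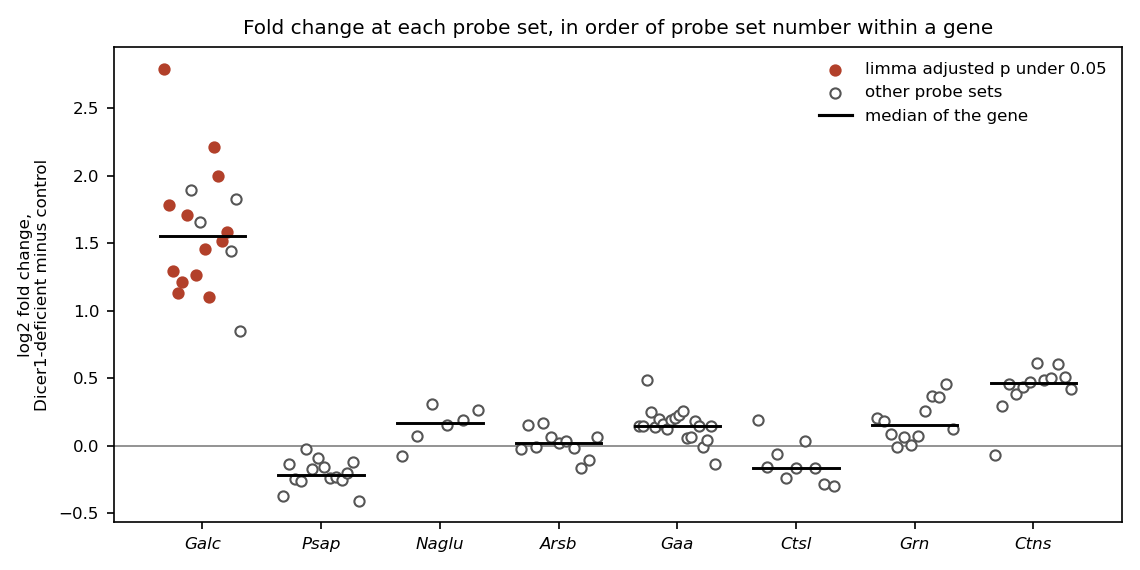
Log2 fold change, Dicer1-deficient minus control, at each of the 102 probe sets in order of probe set number within each gene, with the median of the gene as a bar; filled points passed limma over all probe sets. Filled points occur for Galc alone (13), the Psap points all lie below 0, and 11 of the 12 Ctns points lie above it.

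**Figure D4:**
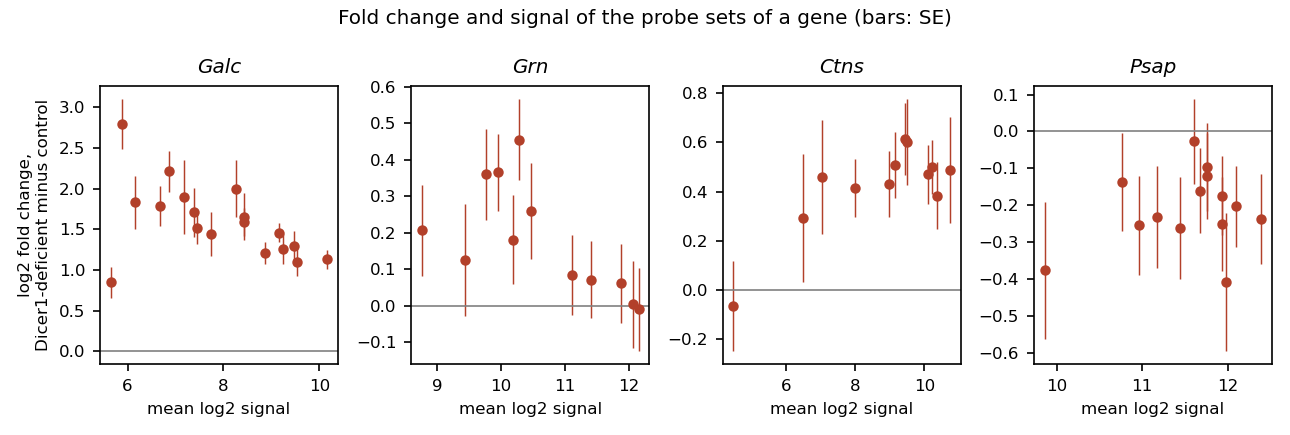
Log2 fold change with its SE against the mean log2 signal of each probe set, for Galc, Grn, Ctns and Psap; the vertical scales differ between panels. For Grn the 5 probe sets over a signal of 11 lie between -0.01 and 0.08. For Galc the largest values belong to dimmer probe sets, but the dimmest one has the smallest value, 0.85. For Ctns the dimmest probe set has the lowest value, -0.07.

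The other lysosomal and autophagy genes in the table gave few calls. Of 209 genes listed besides the members, 56 were measured, and these lay on chromosomes 1, 10, 11, 12 and 13 only. Listed genes absent from the table were not assessed, and all genes means the 5017 in it. In the mean of probe sets 2 of the 56 rose (Ostm1 and Gga3) and 2 fell (Arsg and Gm2a), which is 7.14% against 5.86% of all genes. The median log2 fold change of the 56 was -0.05, or -0.008 without control 4, and it was -0.01 at the brightest probe set. The 56 include the 9 dim placental relatives of Ctsl, 8 of them with negative values in the mean of probe sets. At the brightest probe set Ostm1 alone passed. Without control 4, 3 rose (Ostm1, Gga3 and Slc38a9) and 6 fell in the mean of probe sets, against 6.74% and 10.3% of all genes. Those that fell were Arsg, Gm2a, Cd68, Atg9a, Glb1l (-0.27, limma adjusted p = 0.0447) and Rptor (-0.21, limma adjusted p = 0.0377).

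Among lysosomal membrane proteins and transporters, Ostm1 rose along with Ctns, 2 of 11 measured. Ostm1 encodes the partner subunit of the lysosomal chloride transporter ClC-7, and its loss gives osteopetrosis with neurodegeneration. It read 9.84, 9.78 and 9.93 in Dicer1-deficient arrays, against 9.09, 9.11, 9.12 and 8.68 in controls 1 to 4. The groups were well separated, with a log2 fold change of 0.85 (SE 0.12, limma adjusted p = 0.0032), 0.74 without control 4, and a pass with any 1 array left out. The amino acid sensor gene Slc38a9 was at 0.42 (limma adjusted p = 0.063), and rose without control 4 (adjusted p = 0.0343). Cd68, also a macrophage marker, was at -0.30 (limma adjusted p = 0.0864), and fell without control 4 (adjusted p = 0.0139).

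Of 12 hydrolases measured Galc rose and Arsg fell, and Glb1l fell too with control 4 left out. Arsg encodes arylsulfatase G, another enzyme of heparan sulfate breakdown, and read 5.85, 5.74 and 5.87 in Dicer1-deficient arrays, against 6.40, 6.43, 6.19 and 6.08 in controls 1 to 4. Its log2 fold change was -0.45 (SE 0.10, limma adjusted p = 0.0357). The Dicer1-deficient mean was below the median of all values, where signal above background was not shown. At its brightest probe set the value was -0.33 (adjusted p = 0.632). With 1 array left out Arsg stayed past the test in 1 case of 7, without control 4.

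Among the 5 cofactors and processing genes Gm2a fell. It encodes the GM2 activator, a helper protein of ganglioside breakdown as the saposins are of other sphingolipids. Its values were 9.22, 9.16 and 9.31 in Dicer1-deficient arrays, against 9.50, 9.67, 9.67 and 9.60 in controls 1 to 4, a log2 fold change of -0.38 (SE 0.08, limma adjusted p = 0.0288). The groups did not overlap, but the call was kept in 2 of 7 cases with 1 array left out (without control 1 or control 4). Beside Gm2a and Arsg, 3 of the 7 RPE markers fell in the mean of probe sets, against 2.83% of all genes. Their log2 fold changes were -1.18 for Kcnj13, -0.72 for Rdh5 and -0.54 for Rdh10. The other 4 did not pass, at -0.47 for Mlph, -0.29 for Serpinf1, -0.21 for Pmel and 0.04 for Tspan10. Pmel fell without control 4 (limma adjusted p = 0.0287), where 10.3% of all genes fell. At the brightest probe set Kcnj13 alone of the 7 passed (limma adjusted p = 0.0051). The part of the RPE markers in the values of the lysosomal genes was not tested. Fibroblast, scleral and choroidal markers (9 measured) averaged 9.74 to 10.06 in Dicer1-deficient and 10.22 to 10.34 in control arrays. Of these 9, 2 fell in the mean of probe sets, Fmod (-0.82) and Omd (-0.57), against 2.83% of all genes. Without control 4 it was 5 of the 9, against 10.3% of all genes. Melanocyte and Schwann cell markers (3 measured) averaged 6.14 to 6.26 in Dicer1-deficient and 6.55 to 6.87 in control arrays. Of these 3, 2 fell, Pax3 (-0.91) and Erbb3 (-0.39), and 3 without control 4, against the same shares of all genes. The other markers of both lists had negative values too, and at the brightest probe set none passed. Their part was not tested either.

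Of 11 trafficking and regulation genes Gga3 rose. It encodes an adaptor that sorts mannose 6-phosphate receptors and the lysosomal enzymes they carry towards endosomes. It read 7.05, 7.12 and 6.99 in Dicer1-deficient arrays, against 6.63, 6.73, 6.79 and 6.68 in controls 1 to 4. These did not overlap, at a log2 fold change of 0.35 (SE 0.08, limma adjusted p = 0.0369). It kept the call in 1 of 7 cases with 1 array left out, without control 4. None of 5 vacuolar proton pump genes passed, with Atp6v1d at 0.20 and Atp6v0a1 at 0.11, nor did any of 11 autophagy and phagocytosis genes, with Atg9a at -0.22 and Atg16l1 at 0.21. Atg9a, a membrane protein of forming autophagosomes, fell without control 4 (-0.25, limma adjusted p = 0.0161).

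**Figure D5:**
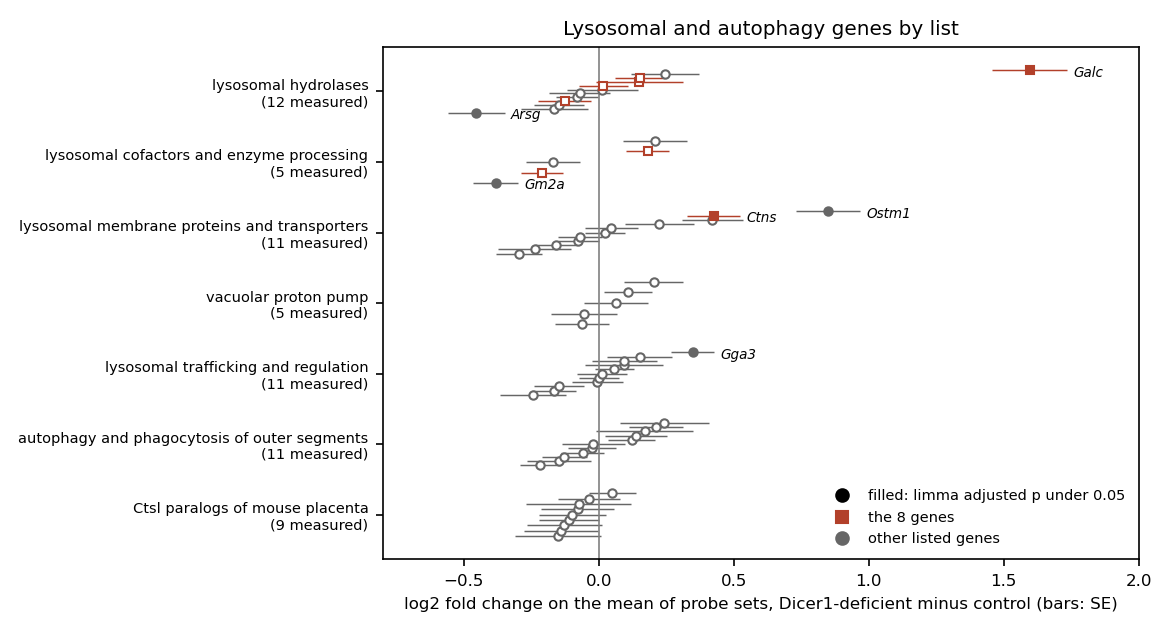
Log2 fold change in the mean of probe sets, Dicer1-deficient minus control, with its SE, for the 64 measured lysosomal and autophagy genes by list; squares are the 8 genes and filled symbols passed limma over all genes. Galc at 1.60 lies apart from all others, followed by Ostm1 at 0.85.

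Macrophages are rich in lysosomal enzymes, and the mean of their markers overlapped between the groups. Their part in the values of the lysosomal genes was not tested. Over 6 measured macrophage and microglia markers the mean log2 signal was 6.73 to 6.89 in Dicer1-deficient and 6.82 to 7.07 in control arrays, and none passed. Their log2 fold changes were 0.10 for Lyz1, 0.01 for Lyz2, -0.01 for Ptprc, -0.03 for Fcer1g, -0.30 for Cd68 and -0.32 for Fcgr3, and Cd68 did not overlap between the groups. Photoreceptor markers (4 measured) averaged 4.76 to 5.53 in Dicer1-deficient and 4.34 to 4.92 in control arrays. Lens markers (7) averaged 5.87 to 7.67 in Dicer1-deficient and 5.02 to 6.67 in control arrays. Extraocular muscle markers (6) averaged 5.85 to 7.15 in Dicer1-deficient and 6.11 to 6.64 in control arrays, and the ranges of all these lists overlapped. All 4 photoreceptor markers and 6 of the 7 lens markers had positive log2 fold changes, with medians of 0.57 and 1.38. Of the 6 muscle markers 3 were positive and 3 negative. None of these markers passed, and their part was not tested.

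For each member the gene with the most similar pattern over the 7 arrays was found by Pearson correlation of mean log2 signals among the 5016 other genes. Galc was most like Ank3, the ankyrin G gene (r = 0.998), and Ctns most like Lpgat1 (r = 0.994). Psap was most like Gm2a (r = 0.980), the other sphingolipid activator measured. Gaa was most like Adgrg6 (r = 0.994), Grn most like Noxred1 (r = 0.983) and Naglu most like Fars2 (r = 0.959). Arsb and Ctsl had weaker best matches, Myl7 (r = 0.937) and Dnah7b (r = 0.912). The points share the same 7 arrays, control 4 included, and the difference between the groups where there is one.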

How the data were processed

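The authors deposited a table of log2 signals for 7 Affymetrix arrays, and RMA and Partek 6.6 are named per the submitters' processing notes without their roles. That the scale is log2 follows from the range of the values, 2.71 to 13.5. The genome build and filters were not given in the sources used here. RMA normally equalizes array distributions, which removes differences in total RNA, yet control 4 kept a lower median. Of 65535 rows, 53644 had 1 gene symbol in the platform annotation, with symbols updated through RefSeq.

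Groups came from the labels. Per gene, the brightest probe set or the mean of all its probe sets was tested with limma (lmFit, eBayes, two-sided), as were single probe sets and probe sets minus their gene's mean (genes with at least 3), each with Benjamini-Hochberg adjustment over the whole table at 0.05. The number of arrays limits precision. The code was tested on simulated data. The members and the 7 pathway lists were chosen with earlier results of these data known. Named list genes are all past the test by either summary, otherwise the 2 smallest p per list. Ostm1, Gga3, Arsg and Gm2a came from that rule, while Slc38a9, Cd68, Glb1l and Rptor were added after their values were seen. Alternatives covered normalization, dim features, variance models, array weights, thresholds and left-out arrays. R 4.3.3, limma 3.58.1 and Python 3.11.15 were used.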

Additional observations from a re-analysis of the deposited data

Results flagged for a closer look

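Among 26 values of the 8 genes and the named list genes, Gaa and Ostm1 had 1 control array far from the other controls in the mean of probe sets by Dixon's test, and it was control 4 both times. Gaa read 8.85 in control 4 and 9.42 to 9.47 in the other controls. Ostm1 read 8.68 in control 4 and 9.09 to 9.12 in the other controls. About 1 in 20 groups would be picked out by chance.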

How the results depend on the processing

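No paired analysis was possible because the labels give the arrays no replicate numbers shared between groups. The count of the 8 genes past the test stayed at 1, Galc, at the brightest probe set under every alternative. In the mean of probe sets it was 2 (Galc and Ctns) and moved to 4 with array weights (Galc, Ctns and Grn higher, Psap lower) and to 1 at an adjusted p of 0.01, and ran from 1 to 3 with 1 array left out. Galc passed in all 16 alternatives of the mean, at 1.46 to 1.76. Ctns passed in 10 of 16. Psap passed under a variance trend (-0.21) beside Galc and Ctns, so the count was 3 there. Psap also passed with array weights (-0.21). Of the 102 probe sets, 13 passed, with 20 under array weights, 6 at 0.01, and 1 to 17 with 1 array left out. Relative to the gene none passed, except 1 with array weights. Signs turned for values near 0. Arsb in the mean was -0.0039 after quantile normalization again, -0.014 after median centring and -0.030 on the median of probe sets, with -0.019 to 0.066 over left-out arrays, and at its brightest probe set -0.0078 to 0.10. Grn at its brightest probe set was 0.080 after quantile normalization again, 0.027 with array weights, 0.061 after median centring without control 4, and -0.038 to 0.039 over left-out arrays. Naglu there was 0.0042 with array weights, 0.060 after median centring without control 4, and -0.15 to 0.038 over left-out arrays. Cts6 and Cts7 were 0.014 and 1.5e-04 after median centring without control 4, a setting added after the data were seen. Over all genes the calls in the mean ran from 121 to 853 with 1 array left out and were 981 with array weights and 176 on the median of probe sets, against 294; at the brightest probe set they ran from 33 to 260 and were 385, against 117. The cause was not tested. Detection calls were not used, so the size of folds from signals under the median of all values is uncertain.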
